A study of Mus musculus with 16 samples.

Results

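The genes described here copy DNA or supply its building blocks: origin licensing factors, the replicative helicase and its activators, polymerases and primase, the sliding clamp and its loader, single-strand binding proteins, fragment-joining enzymes, nucleotide-supply enzymes and replication-linked chromatin factors. They were chosen by name as a list of 44, with earlier results of these data known. Of the 44, 43 matched a named probe set, each with 1 probe set, out of 19505 named genes on the array and 22206 probe sets tested. Mcm7 was the member without a match. The cells were BU.MPT, a line from mouse proximal tubule that carries a temperature-sensitive SV40 large T antigen under an interferon-inducible promoter. The cells of all 4 groups were held at 39 °C without interferon-γ, which is meant to keep the antigen off, and were at least 90% confluent. The 4 groups held 4 arrays each. Control cells stood in 21% oxygen with 10% serum and 4.5 g/L glucose, and control+B12 cells also received 0.3 µM cyanocobalamin, a form of vitamin B12. For hypoxia/reperfusion (H/R) the cells were first kept for 3 h at about 1% oxygen in medium free of glucose and serum and then for 1 h under normal conditions again, and H/R+B12 cells went through the same steps with 0.3 µM cyanocobalamin. Oxygen, glucose and serum changed together, so their parts cannot be told apart. The comparisons asked what H/R did to transcript levels and whether B12 altered that.

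DNA is copied once per cell cycle. In G1 the origin recognition complex, Cdc6 and Cdt1 load the ring-shaped Mcm2-7 helicase onto origins, and in S phase Cdc45 and the GINS complex turn that ring into the active helicase, behind which primase, polymerases and the Pcna clamp build new strands. Many of these genes are transcribed under E2F factors around the G1/S boundary, and after kidney injury tubular cells are known to re-enter the cell cycle. In a lysate, fewer cells in S phase and less of a transcript in each cell cannot be told apart.

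Values are log2 signals, so a difference of 1 is a 2-fold change, and levels are compared only within a gene. The 16 arrays had medians of 5.21 to 5.37 over the tested probe sets, and arrays within a group correlated with r of 0.99 to 0.9938. All 43 members had a mean signal above the highest array median of the negative control features, which ran from 5.72 to 6.23. Of 15 measured genes listed as proximal tubule markers, 11 lay below the lowest of those medians. Lrp2 was among them, with group means of 3.34 to 3.86, whereas Aqp1, Mme, Cdh16 and Pax8 lay above that median. Endothelial, fibroblast and leukocyte markers lay below it for 7 of 7, 6 of 7 and 5 of 6. The exceptions were the fibroblast marker Col1a1, with group means of 5.80 to 6.39, and the leukocyte marker Csf1r, with 9.06 to 9.43. Of 9 distal nephron and collecting duct markers 6 lay below the lowest negative control median, and 3 lay above it. Those 3 were Krt7, Krt8 and Scnn1a, with group means of 14.91 to 14.96, 10.45 to 10.77 and 6.68 to 7.83. In the averaged comparison described next, Aqp1 fell by 0.83 and Mme by 0.56 on the log2 scale. Cdh16 (-0.20, limma adjusted p = 0.131) and Pax8 (0.12, adjusted p = 0.426), the other genes of that list above background, were not called. Scnn1a fell by 0.79 (limma adjusted p = 0.0072), and Krt7 (0.02, adjusted p = 0.915) and Krt8 (0.30, adjusted p = 0.36) were not called. The part of such shifts in the results was not tested. The array control 1 stood apart in its cell cycle signal: its mean over 25 genes of G2 and M phase was 11.78, against 10.90 to 11.11 in the other control arrays. It was also the highest control array for 28 of the 43 replication members, with a median of 0.23 above the other control arrays, and the counts of called genes below are given with and without it.

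H/R lowered part of the replication machinery and left another part without a detected change. With the 8 H/R arrays against the 8 control arrays, averaged over B12, 18 of 43 members fell (41.9%) and 2 rose (4.65%) by limma with Benjamini-Hochberg adjustment at 0.05. Over all tested probe sets 14.7% fell and 12.5% rose in the same comparison, 27.2% in all. The array medians over tested probe sets (5.21 to 5.37) lay below the negative control medians (5.72 to 6.23), whereas all 43 members lay above them. This share and those below thus include many probe sets at background, and shares among probe sets of like signal were not counted. The 43 members had a median difference of -0.27, against -0.03 over all tested probe sets, and 36 of the 43 differences were negative. Without control 1, 15 members fell and 2 rose, with 14.2% and 12.2% over all tested (26.3% in all). The 3 members lost were Cdc6, Gins3 and Pola1. With each array centred on its own median, 12 members fell and 2 rose, with 11.7% and 15.1% over all tested (26.8% in all). That centring turned the split over all tested probe sets from 2773 higher and 3262 lower to 3344 higher and 2604 lower.

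The pair of H/R comparisons was also read separately. Without B12, 13 members fell and 0 rose against control, where 9.54% of tested probe sets fell and 8.11% rose, 17.6% in all. Without control 1 the counts were 11 and 0, with 8.48% and 7.61% over all tested (16.1% in all), and the calls lost were Mcm3 and Rfc2. With B12 in both arms, 8 members fell and 1, Chaf1b, rose, where 9.61% fell and 9.04% rose, 18.7% in all. Leaving control 1 out of the fit also gave 8 and 1, with 9.53% and 9.15% over all tested (18.7% in all), but Gins2 was replaced by Cdc45. All 8 in the full fit were among the 13 that fell without B12: Fen1, Gins2, Gins4, Pola2, Rfc2, Rpa3, Tk1 and Tyms, or 61.5% of the 13 and 100% of the 8. The total of 9 called with B12 changed with the arrays kept. It was 4 without H/R+B12 4 and 5 without either control+B12 1 or H/R+B12 2, and it was 5 when only the groups compared were fitted. The shares over all tested probe sets in these smaller fits are not given here, so a general loss of calls cannot be told apart. Under array centring 5 fell and 2 rose with B12, with 7.23% and 10.9% over all tested (18.1% in all), and 11 fell and 0 rose without it, with 7.41% and 9.61% (17% in all). The centring moved the split over all tested probe sets from 2007 higher and 2135 lower to 2417 and 1605 with B12, and from 1801 and 2118 to 2133 and 1646 without it. Gins4, Pola2 and Tyms kept their calls with B12 in each of the 24 alternatives, and 10 of the 13 members did so without B12. The averaged comparison uses the arrays of both, so it is no separate evidence.

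**Figure D1:**
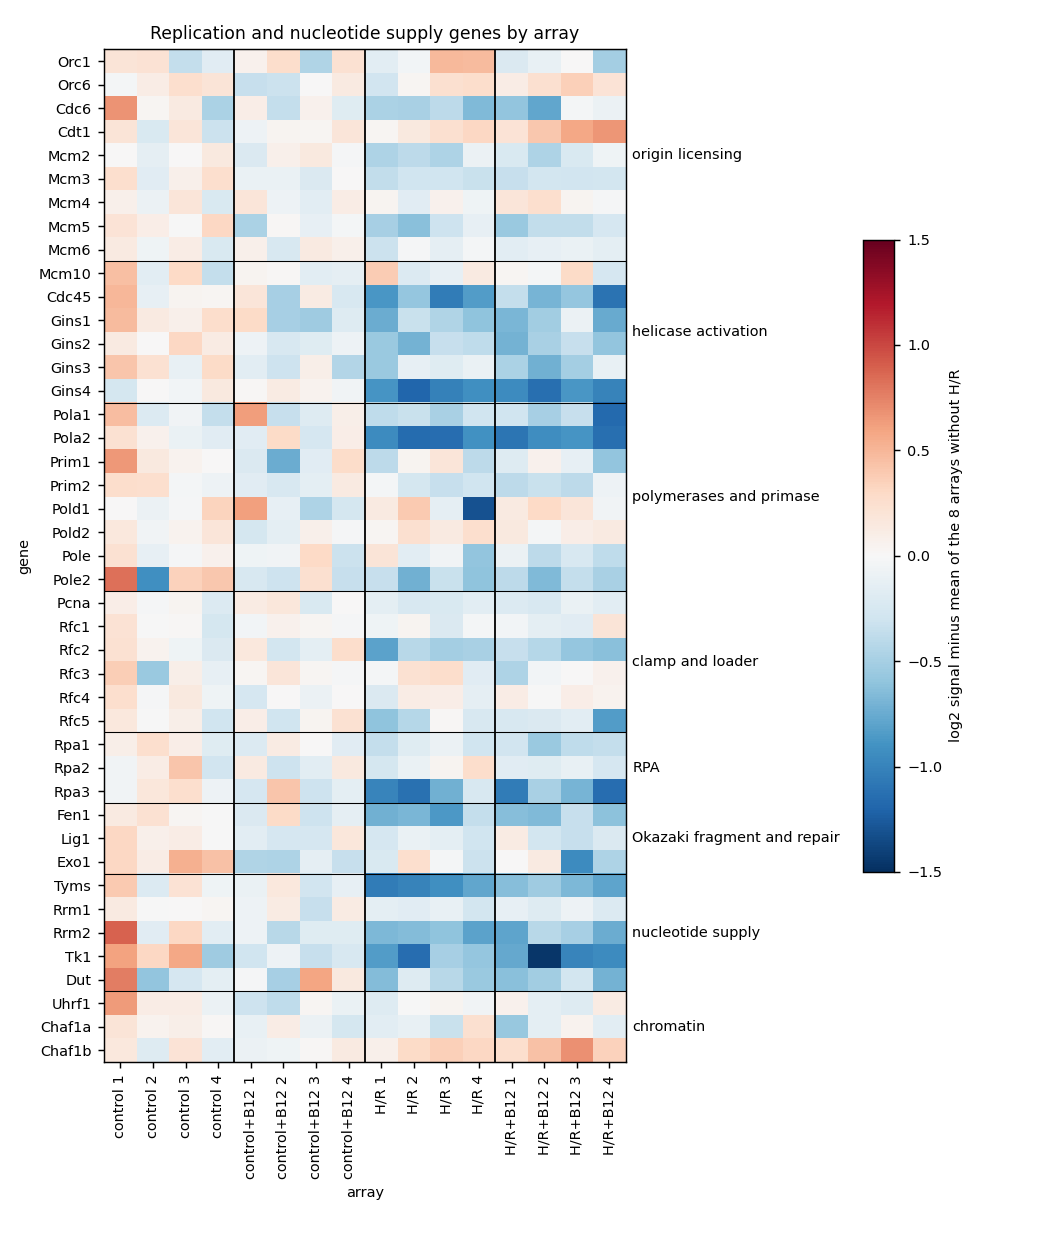
Heat map of 43 members (rows, ordered by role) over 16 arrays (columns, by group), coloured by log2 signal minus the gene's mean over the 8 arrays without H/R (blue lower, red higher). The deepest blue rows under H/R and H/R+B12 include Gins4 and Pola2, which fell by 0.99 and 1.03 in the averaged comparison, and control 1 is the reddest of the control columns.

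Origin licensing was mixed. Of its 9 measured members, Cdc6, Mcm2, Mcm3 and Mcm5 fell in the averaged comparison, Cdt1 rose and 4 were not called, and without control 1 there were 3 falls and 1 rise. Mcm3, a subunit of the helicase ring, read 13.50, 13.07, 13.32 and 13.49 in control, 13.14, 13.15, 13.03 and 13.25 in control+B12, 12.87, 12.95, 12.94 and 12.91 in H/R, and 12.90, 12.97, 12.96 and 12.97 in H/R+B12. The 8 H/R values were each lower than every one of the 8 control values, and the averaged difference was -0.31 (SE 0.09, limma adjusted p = 0.0106), a 1.24-fold fall. That call was lost when arrays were centred (adjusted p = 0.071).

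Mcm5, which sits with Mcm2 at the gate of the same ring, read 12.06, 11.96, 11.85 and 12.17 in control and 11.36, 11.23, 11.55 and 11.74 in H/R. With B12 it read 11.39, 11.88, 11.74 and 11.83 in control+B12 and 11.30, 11.49, 11.49 and 11.61 in H/R+B12. The groups were separate without B12 and overlapped with it through control+B12 1, and the averaged fall was 0.39 on the log2 scale (SE 0.11, limma adjusted p = 0.00991). Mcm2 had an averaged difference of -0.30 (SE 0.10, limma adjusted p = 0.0286). Its call was lost in 8 of 23 alternatives.

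The other ring subunits did not pass the test. Mcm4 differed by 0.04 (95% interval -0.16 to 0.24) and Mcm6 by -0.13 (-0.33 to 0.07), so the ring was not shown to move as one. Whether its subunits differed from each other was not tested. Mcm6 ran from 13.77 to 14.13 in control and from 13.68 to 13.98 in H/R, ranges that overlap.

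The loading factors Cdc6 and Cdt1 went in opposite directions. Cdc6, the ATPase that brings the ring to the origin complex, read 10.87, 10.22, 10.33 and 9.72 in control and 9.72, 9.70, 9.80 and 9.53 in H/R, with control 1 the highest of all. Its averaged fall was 0.44 (SE 0.16, limma adjusted p = 0.0468), and without control 1 it did not pass (-0.34, adjusted p = 0.0947). Cdt1, the partner of Cdc6 in loading, read 11.03, 10.61, 11.02 and 10.51 in control, 10.76, 10.87, 10.86 and 11.01 in control+B12, 10.86, 10.98, 11.07 and 11.14 in H/R, and 11.04, 11.24, 11.41 and 11.49 in H/R+B12. It rose by 0.32 (SE 0.11, limma adjusted p = 0.0334), and its group means were 10.79 ± 0.27 in control, 10.87 ± 0.10 in control+B12, 11.01 ± 0.12 in H/R and 11.30 ± 0.20 in H/R+B12 (SD, n = 4). All H/R+B12 arrays of Cdt1 lay above all control+B12 arrays, and the averaged call was lost in 9 of 23 alternatives.

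Orc1 and Orc6, subunits of the origin recognition complex, were not called, with averaged differences of -0.01 (95% interval -0.32 to 0.30) and 0.14 (-0.09 to 0.37). Orc1 read 8.90, 8.92, 8.34 and 8.53 in control, 8.77, 8.97, 8.25 and 8.93 in control+B12, 8.54, 8.66, 9.19 and 9.18 in H/R, and 8.48, 8.59, 8.71 and 8.19 in H/R+B12. Orc6 read 10.11, 10.25, 10.39 and 10.34 in control, 9.79, 9.82, 10.15 and 10.28 in control+B12, 9.86, 10.17, 10.38 and 10.40 in H/R, and 10.25, 10.38, 10.50 and 10.35 in H/R+B12. The groups of both genes overlapped, with H/R 3 and H/R 4 highest for Orc1 and control+B12 1 and 2 lowest for Orc6.

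Upstream sequences are shown for 5 of these genes because E2F motifs are the classic shared feature of replication promoters and because the members differed in response. The 5 were chosen after their values were seen, and only from members with an E2F match. Cdc6, Mcm5, Gins3 and Pola1 fell in the averaged comparison, and Mcm6, which was not called, has the most motif matches. The calls of Cdc6, Gins3 and Pola1 were lost without control 1, and that of Mcm5 was kept. Windows from RefSeq (GRCm38.p6) reached from 250 bases before to 50 after an annotated start and existed for 35 of the 43 members. An E2F spelling (TTTGGCGC, TTTCCCGC, TTTCGCGC or TTTGCCGC, on either strand) was present in 13 of the 35 (37.1%), against 3.38% of 15691 array genes with a window and 2.26% of 32851 windows in all. Among the members with windows the spelling was present in 5 of the 14 that fell with all arrays kept and in 8 of the 21 others. The members that fell and had a window without it were Pola2, Tyms, Fen1, Tk1, Cdc45, Rpa3, Rrm2, Rpa1 and Mcm2. CCAAT, the box bound by NF-Y, on either strand, was present in 62.9% of members and 42.2% of array genes, and the promoter element TTTGAA or TTCGAA in 17.1% and 19.6%. Median GC content was 61.3% in the members' windows and 57% in those of array genes, and its part in the shares was not tested. The 250 bases before the start are printed 5′ to 3′ on the strand of the gene, with E2F and CCAAT matches in capitals. In Mcm5 and Mcm6 a pair of E2F matches on opposite strands overlaps.
Mcm5 (chr8:75109259-75109508, + strand): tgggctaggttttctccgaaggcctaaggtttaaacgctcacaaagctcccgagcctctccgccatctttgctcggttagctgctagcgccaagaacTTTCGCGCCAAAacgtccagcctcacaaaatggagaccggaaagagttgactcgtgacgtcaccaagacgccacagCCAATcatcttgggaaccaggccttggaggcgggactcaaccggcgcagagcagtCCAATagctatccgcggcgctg
Mcm6 (chr1:128359706-128359955, - strand): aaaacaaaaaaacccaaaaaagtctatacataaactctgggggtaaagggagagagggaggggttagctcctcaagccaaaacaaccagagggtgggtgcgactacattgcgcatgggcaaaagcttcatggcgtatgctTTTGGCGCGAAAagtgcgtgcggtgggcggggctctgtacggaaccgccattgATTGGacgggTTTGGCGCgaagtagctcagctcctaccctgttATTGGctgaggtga
Cdc6 (chr11:98907901-98908150, + strand): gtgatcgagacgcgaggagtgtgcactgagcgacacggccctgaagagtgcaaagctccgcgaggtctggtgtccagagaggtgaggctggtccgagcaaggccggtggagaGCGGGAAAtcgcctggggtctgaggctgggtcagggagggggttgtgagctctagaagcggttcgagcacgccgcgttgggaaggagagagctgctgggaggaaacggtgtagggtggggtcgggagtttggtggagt
Gins3 (chr8:95633309-95633558, + strand): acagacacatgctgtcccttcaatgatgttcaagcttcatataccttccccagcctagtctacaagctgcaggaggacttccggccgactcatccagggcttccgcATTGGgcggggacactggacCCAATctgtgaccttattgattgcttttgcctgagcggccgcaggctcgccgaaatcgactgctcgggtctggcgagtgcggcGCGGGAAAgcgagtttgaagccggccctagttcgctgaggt
Pola1 (chrX:93632156-93632405, - strand): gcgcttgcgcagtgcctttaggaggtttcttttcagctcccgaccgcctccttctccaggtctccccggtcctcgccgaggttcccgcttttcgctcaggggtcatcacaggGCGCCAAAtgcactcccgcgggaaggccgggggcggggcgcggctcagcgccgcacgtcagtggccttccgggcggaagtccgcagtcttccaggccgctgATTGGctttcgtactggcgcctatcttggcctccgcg
The first E2F match begins 153 bases before the start in Mcm5, 110 in Mcm6, 138 in Cdc6, 41 in Gins3 and 138 in Pola1. A match is a run of letters and was not tested as a binding site.

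Of the 6 helicase activators 5 fell in the averaged comparison, or 4 without control 1, with a median difference of -0.52 (-0.50 without it). Gins4, one of the 4 GINS subunits, read 13.13, 13.41, 13.36 and 13.55 in control, 13.42, 13.52, 13.45 and 13.35 in control+B12, 12.51, 12.21, 12.38 and 12.48 in H/R, and 12.46, 12.27, 12.52 and 12.40 in H/R+B12. Each H/R array was below each control array by a wide margin. The averaged fall was 0.99 (SE 0.09, 1.99-fold, limma adjusted p = 3.20e-07), with -0.97 without B12 and -1.02 with it. In Gins4, control 1 was the lowest control array, and without it the difference was -1.03.

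Gins2, a second subunit, read 11.39, 11.26, 11.56 and 11.38 in control, 11.17, 11.01, 11.07 and 11.17 in control+B12, 10.70, 10.54, 10.90 and 10.87 in H/R, and 10.54, 10.76, 10.90 and 10.66 in H/R+B12. Its 8 H/R arrays were below the 8 control arrays. The control+B12 arrays were all below the control arrays as well, a separation that was not counted over all tested probe sets. The averaged fall was 0.52 (SE 0.09, limma adjusted p = 0.000331). With B12 the difference was -0.39, and that call was lost in 14 of 24 alternatives.

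Cdc45, which joins the Mcm ring and GINS in the active helicase, read 11.33, 10.71, 10.87 and 10.86 in control and 9.96, 10.25, 9.78 and 9.99 in H/R. With B12 it read 11.01, 10.34, 10.95 and 10.59 in control+B12 and 10.48, 10.13, 10.25 and 9.72 in H/R+B12. The groups were separate without B12 and overlapped with it, where control+B12 2 was low and H/R+B12 1 was high. Cdc45 fell by 0.76 in the averaged comparison (SE 0.14, limma adjusted p = 0.000453) and by 0.95 without B12, and with B12 its difference of -0.58 had an adjusted p of 0.0523, or 0.042 without control 1.

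Gins1 and Gins3 completed the set. Gins1 read 10.13, 9.79, 9.74 and 9.92 in control, 9.95, 9.16, 9.12 and 9.46 in control+B12, 8.91, 9.32, 9.21 and 9.05 in H/R, and 8.97, 9.14, 9.57 and 8.90 in H/R+B12. Its groups were separate without B12 and overlapped with it, where 3 of the control+B12 arrays were low. It fell by 0.53 (SE 0.14, limma adjusted p = 0.00754) and Gins3 by 0.35 (SE 0.12, limma adjusted p = 0.0418). The Gins3 call did not hold without control 1 (-0.31, adjusted p = 0.0832) and was lost in 13 of 23 alternatives. Mcm10, a scaffold that helps start unwinding, differed by 0.03 (95% interval -0.25 to 0.31).

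**Figure D2:**
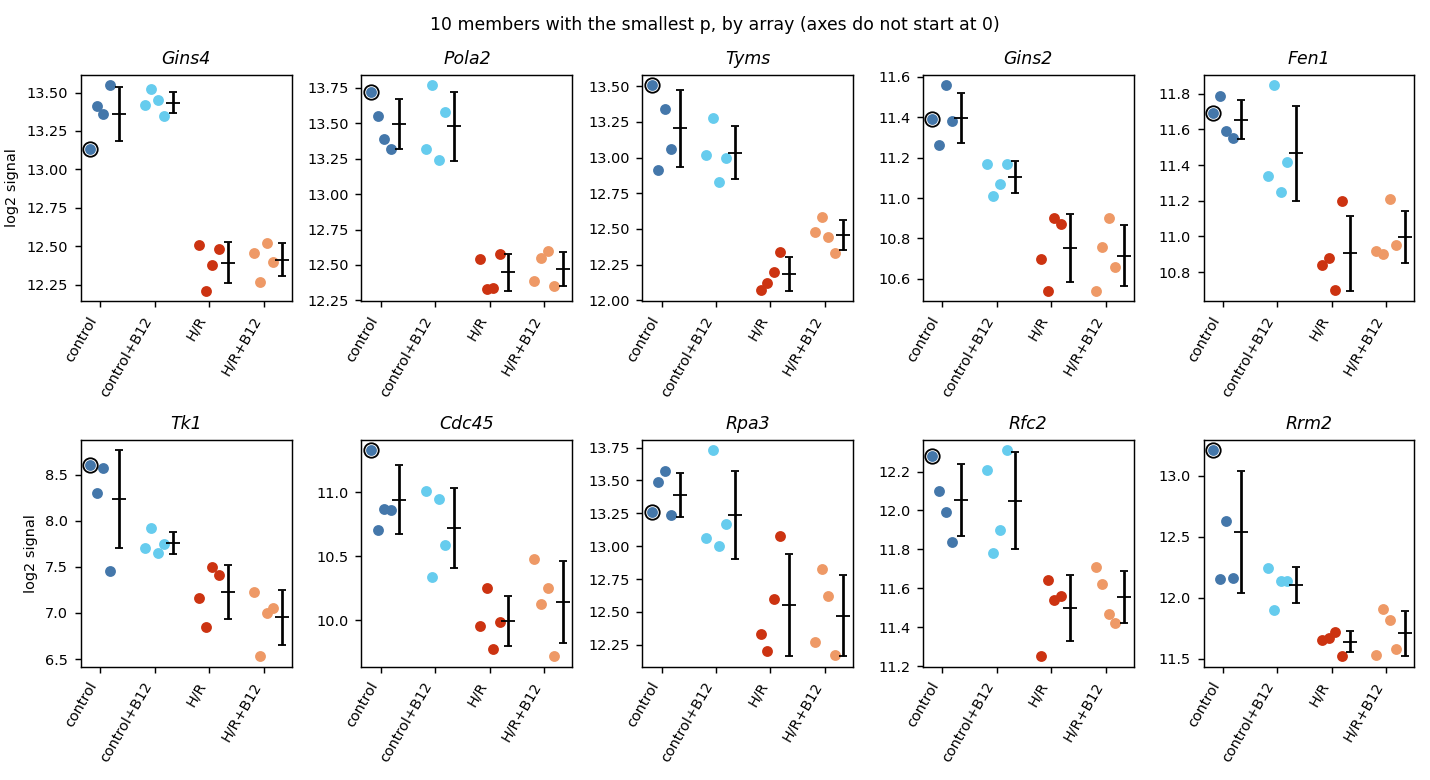
Log2 signal of the 10 members with the smallest averaged adjusted p-values, per array in the 4 groups; points are arrays, the ringed point is control 1 and bars are mean ± SD (n = 4). In Gins4 the control arrays sit at 13.13 to 13.55 and the H/R arrays at 12.21 to 12.51, and Gins2, Pola2, Tyms, Fen1 and Rfc2 are separated across all 16 arrays in the same way.

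Polymerase α and primase together lay the first primer and DNA of each strand, and of the 8 polymerase and primase members 2 fell in the averaged comparison, or 1 without control 1. Pola2, the regulatory subunit, read 13.72, 13.55, 13.39 and 13.32 in control, 13.32, 13.77, 13.24 and 13.58 in control+B12, 12.54, 12.33, 12.34 and 12.58 in H/R, and 12.39, 12.55, 12.60 and 12.35 in H/R+B12. All H/R arrays of Pola2 were below all control arrays, and the groups with and without B12 overlapped within each condition. The averaged fall was 1.03 (SE 0.10, 2.04-fold, limma adjusted p = 1.04e-06), with -1.05 without B12 and -1.01 with it.

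Pola1, the catalytic partner of Pola2, read 11.93, 11.26, 11.41 and 11.11 in control and 12.09, 11.12, 11.27 and 11.55 in control+B12. It read 11.09, 11.13, 10.98 and 11.17 in H/R and 11.17, 10.97, 11.12 and 10.30 in H/R+B12. Control 1 and control+B12 1 were high and H/R+B12 4 was low. The averaged fall of 0.48 (SE 0.16, limma adjusted p = 0.0398) did not pass without control 1 (-0.39, adjusted p = 0.0853).

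The primase subunits Prim1 and Prim2 differed by -0.17 (95% interval -0.51 to 0.16) and -0.27 (-0.48 to -0.06), and neither passed. Prim2 had an adjusted p of 0.0544 and passed in 7 of the alternatives. The leading- and lagging-strand polymerases gave no call: Pold1 and Pold2 of polymerase δ differed by -0.04 and 0.13, and Pole and Pole2 of polymerase ε by -0.22 and -0.49. Pole2 had the widest spread in control, with 10.31, 8.57, 9.83 and 9.89, and Pold1 was the dimmest member, with 5.34 in H/R 4 against 6.51 to 7.04 in the other H/R arrays.

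The clamp itself was not called. Pcna, the ring that holds polymerases on DNA, read 17.16, 17.04, 17.10 and 16.85 in control and 16.91, 16.81, 16.83 and 16.90 in H/R, and its averaged difference was -0.18 (95% interval -0.37 to 0.00, limma adjusted p = 0.144). Of the clamp loader's 5 subunits 1 fell, with or without control 1. Rfc2 read 12.28, 12.10, 11.99 and 11.84 in control, 12.21, 11.78, 11.90 and 12.31 in control+B12, 11.25, 11.64, 11.54 and 11.56 in H/R, and 11.71, 11.62, 11.47 and 11.42 in H/R+B12.

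The Rfc2 groups did not overlap over the 16 arrays, with a fall of 0.53 (SE 0.11, limma adjusted p = 0.00121). Without B12 the fall was 0.56, and without control 1 it was no longer called in that comparison (-0.48, adjusted p = 0.0549). Rfc1, Rfc3 and Rfc4 lay within -0.06 to 0.01, and Rfc5 differed by -0.34 (95% interval -0.61 to -0.06, limma adjusted p = 0.0685).

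Replication protein A coats single-stranded DNA as a trimer, and 2 of its 3 subunits fell, with or without control 1. Rpa3, the smallest, read 13.26, 13.49, 13.57 and 13.24 in control, 13.06, 13.73, 13.00 and 13.17 in control+B12, 12.33, 12.20, 12.60 and 13.08 in H/R, and 12.27, 12.83, 12.62 and 12.17 in H/R+B12. H/R 4 was high enough to reach above the lowest control+B12 arrays, and within each B12 setting the groups were separate. Rpa3 fell by 0.80 (SE 0.15, 1.75-fold, limma adjusted p = 0.000564) and Rpa1 by 0.32 (SE 0.09, limma adjusted p = 0.0185). The Rpa1 call was lost under array centring (adjusted p = 0.0761). Rpa2 differed by -0.10 (95% interval -0.35 to 0.15).

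Fen1, the nuclease that trims flaps between Okazaki fragments, was the called gene among the enzymes that finish the lagging strand. It read 11.69, 11.79, 11.59 and 11.55 in control, 11.34, 11.85, 11.25 and 11.42 in control+B12, 10.84, 10.88, 10.70 and 11.20 in H/R, and 10.92, 10.90, 11.21 and 10.95 in H/R+B12. The highest H/R values, 11.20 and 11.21, stayed below the lowest control value of 11.25. Fen1 fell by 0.61 (SE 0.11, 1.53-fold, limma adjusted p = 0.000358), with -0.75 without B12 and -0.47 with it. The call with B12 was lost in 12 of 24 alternatives.

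Lig1, the ligase that seals the fragments, differed by -0.19 (95% interval -0.40 to 0.02). Its H/R arrays were all below its control arrays without B12, at 7.99 to 8.18 against 8.28 to 8.60, without passing the test (-0.32, limma adjusted p = 0.145). Exo1, an exonuclease of replication and mismatch repair, differed by -0.20 (-0.51 to 0.11).

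Nucleotide supply had 3 falls among 5 members, with or without control 1, and a median difference of -0.65 (-0.53 without it). Tyms, thymidylate synthase, which makes dTMP with a folate cofactor, read 13.51, 12.91, 13.34 and 13.06 in control, 13.02, 13.28, 12.83 and 13.00 in control+B12, 12.07, 12.12, 12.20 and 12.34 in H/R, and 12.48, 12.58, 12.44 and 12.33 in H/R+B12. No H/R value reached a control value, and 3 of the 4 H/R+B12 arrays were above the highest H/R array. The averaged fall was 0.80 (SE 0.11, 1.74-fold, limma adjusted p = 1.98e-05), with -1.02 without B12 and -0.57 with it.

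Tk1, thymidine kinase, which salvages thymidine and is known as an S phase transcript, read 8.60, 8.30, 8.57 and 7.46 in control, 7.70, 7.92, 7.65 and 7.75 in control+B12, 7.16, 6.85, 7.50 and 7.41 in H/R, and 6.53 to 7.23 in H/R+B12. Control 4 was low, below H/R 3, and the other control arrays were above every H/R array. Tk1 fell by 0.90 (SE 0.16, 1.87-fold, limma adjusted p = 0.000406).

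Rrm2, the small subunit of ribonucleotide reductase, which makes deoxynucleotides, read 13.21, 12.15, 12.63 and 12.16 in control and 11.65, 11.67, 11.72 and 11.52 in H/R. With B12 it read 12.24, 11.90, 12.14 and 12.14 in control+B12 and 11.53, 11.91, 11.82 and 11.58 in H/R+B12. Control 1 was the highest array, the groups without B12 were separate, and those with B12 touched at 11.90 and 11.91. Rrm2 fell by 0.65 (SE 0.14, limma adjusted p = 0.00187), or by 0.53 without control 1 (adjusted p = 0.00132).

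Rrm1, the large subunit of the same enzyme, differed by -0.16 (95% interval -0.35 to 0.02) and was not called. Dut, which removes dUTP, differed by -0.49 (-0.88 to -0.11) with a limma adjusted p of 0.0549. Without control 1, at 10.51 its highest array, Dut differed by -0.36 (adjusted p = 0.0973).

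Chromatin assembly gave the remaining rise. Chaf1b, a subunit of the assembly factor that places histones on new DNA, read 13.68, 13.33, 13.73 and 13.36 in control, 13.43, 13.46, 13.54 and 13.66 in control+B12, 13.60, 13.81, 13.88 and 13.83 in H/R, and 13.77, 13.96, 14.21 and 13.87 in H/R+B12. The H/R+B12 arrays were all above the control+B12 arrays, and without B12 the groups overlapped. Chaf1b rose by 0.34 (SE 0.10, 1.27-fold, limma adjusted p = 0.0156), and its call with B12 alone was lost in 12 of 24 alternatives. Its partner Chaf1a differed by -0.15 (95% interval -0.38 to 0.09), and Uhrf1, which couples DNA methylation to replication, by -0.05 (-0.29 to 0.19). Uhrf1 read 12.31, 11.78, 11.78 and 11.58 in control, 11.36, 11.29, 11.70 and 11.57 in control+B12, 11.48, 11.66, 11.71 and 11.62 in H/R, and 11.74, 11.52, 11.48 and 11.80 in H/R+B12. Control 1 stood above the other arrays and control+B12 held the 2 lowest.

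**Figure D3:**
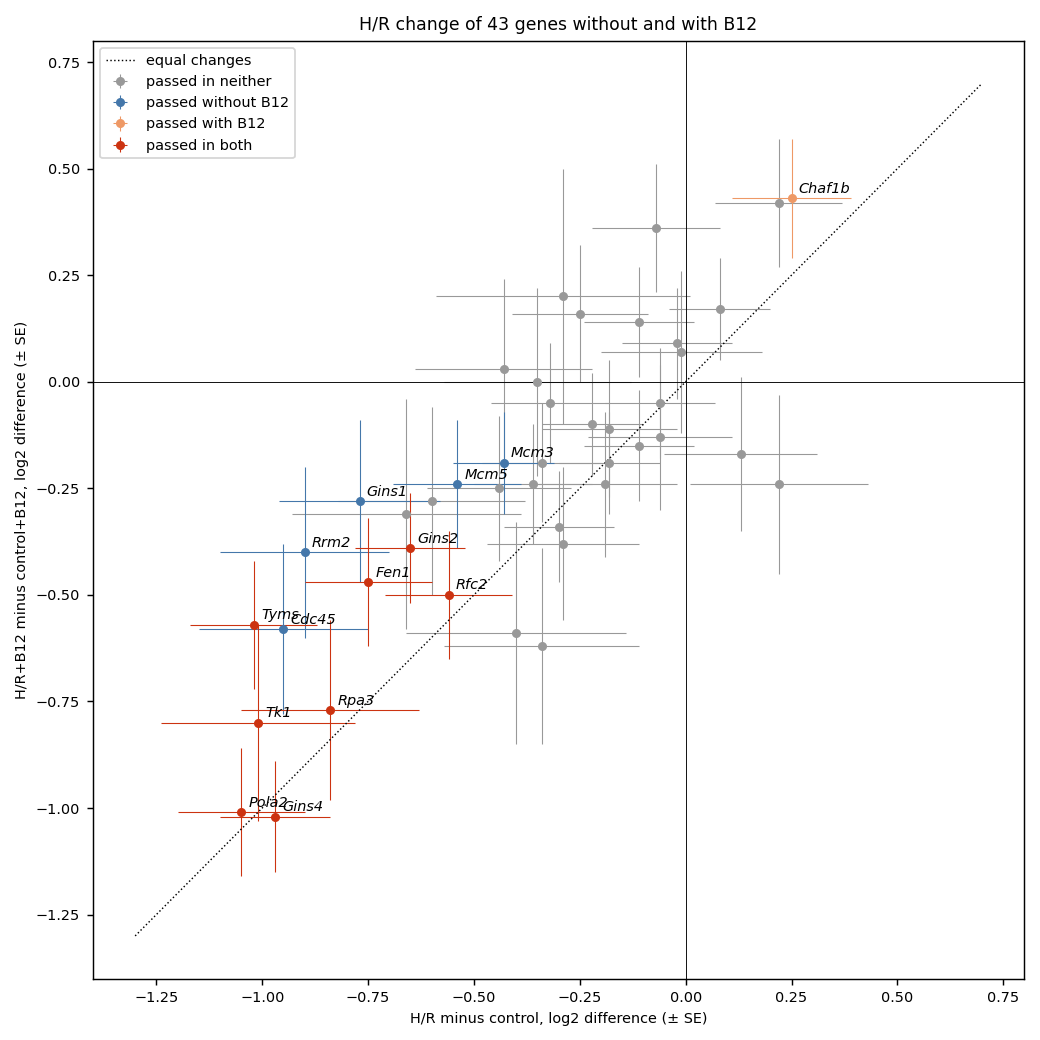
Each of the 43 members by its log2 difference H/R minus control (x axis) and H/R+B12 minus control+B12 (y axis), with bars of 1 SE and colours for the comparisons in which it passed; the dotted line marks equal changes. Gins4 and Pola2 lie on that line near -1, and Tyms at -1.02 and -0.57 lies above it.

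Separation of the arrays was also read without a model, and the members it picked were not all those that limma called. Every H/R value was lower than every control value for 14 members without B12, where 11% of tested probe sets did so, and for 11 members with B12, where 11.2% did so. Lig1 and Rrm1 were separated without B12 and not called, whereas Tk1 was called and not separated, and Mcm3, Pole2 and Rpa1 were separated with B12 and not called. With B12, Cdt1 and Chaf1b had all H/R arrays above, against 10.3% over all tested. For 7 members, Mcm3, Gins2, Gins4, Pola2, Rfc2, Fen1 and Tyms, each of the 8 H/R arrays was below each of the 8 control arrays, where 5.98% of tested probe sets were. Without control 1 the same 14 and 7 members were separated, against 13.4% and 6.58%.

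B12 changed no member by the test. In control+B12 against control, 0 of 43 members passed by limma with Benjamini-Hochberg adjustment, as did 0% of all tested probe sets, and 6 members had an unadjusted p under 0.05, against 5.76% of tested probe sets. Those 6 were Exo1, Gins1, Gins2, Gins3, Rrm2 and Uhrf1, all with negative differences, and without control 1 the count was 1. Exo1 read 8.79, 8.60, 9.02 and 8.92 in control and 8.03, 8.02, 8.35 and 8.14 in control+B12 (8.26, 8.74, 8.45 and 8.16 in H/R, and 8.49, 8.62, 7.54 and 8.02 in H/R+B12). The control and control+B12 groups did not overlap, with a difference of -0.70 (95% interval -1.14 to -0.26, limma adjusted p = 0.762). How often groups were separate in this comparison over all tested probe sets was not counted, so that separation has no baseline. The members' median difference was -0.15, or -0.10 without control 1, against 0.00 over all tested.

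In H/R+B12 against H/R, 0 members passed, 0% of all tested probe sets did, and 0 members had an unadjusted p under 0.05, against 4.55% of tested probe sets. The median over members was 0.02. The smallest unadjusted p-values belonged to Orc1, Cdt1 and Tyms, with differences of -0.40 (95% interval -0.84 to 0.04), 0.28 (-0.04 to 0.60) and 0.28 (-0.04 to 0.59). For comparison, the difference of Gins4 was 0.02 (-0.25 to 0.29) and that of Pola2 was 0.02 (-0.29 to 0.33). These intervals still allow changes of about the size of the smaller H/R falls.

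The interaction, which asks whether the H/R difference itself depended on B12, gave 0 calls among members by limma and 0% over all tested. With unadjusted p under 0.05 it gave 1 member, Tyms, against 4.82% of tested probe sets. Tyms had an interaction of 0.45 (95% interval 0.00 to 0.89, limma unadjusted p = 0.0496, adjusted p = 0.987 by Benjamini-Hochberg), or 0.35 without control 1. The next members by p-value were Orc6 at 0.43 (-0.03 to 0.89) and Gins1 at 0.50 (-0.08 to 1.08). Of the 43 interactions 32 were positive, with a median of 0.15, against 0.01 over all tested, and without control 1 it was 29 with a median of 0.11. For a member that fell, a positive value is a smaller fall with B12. A dependence of the fall on B12 was not shown for any member.

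**Figure D4:**
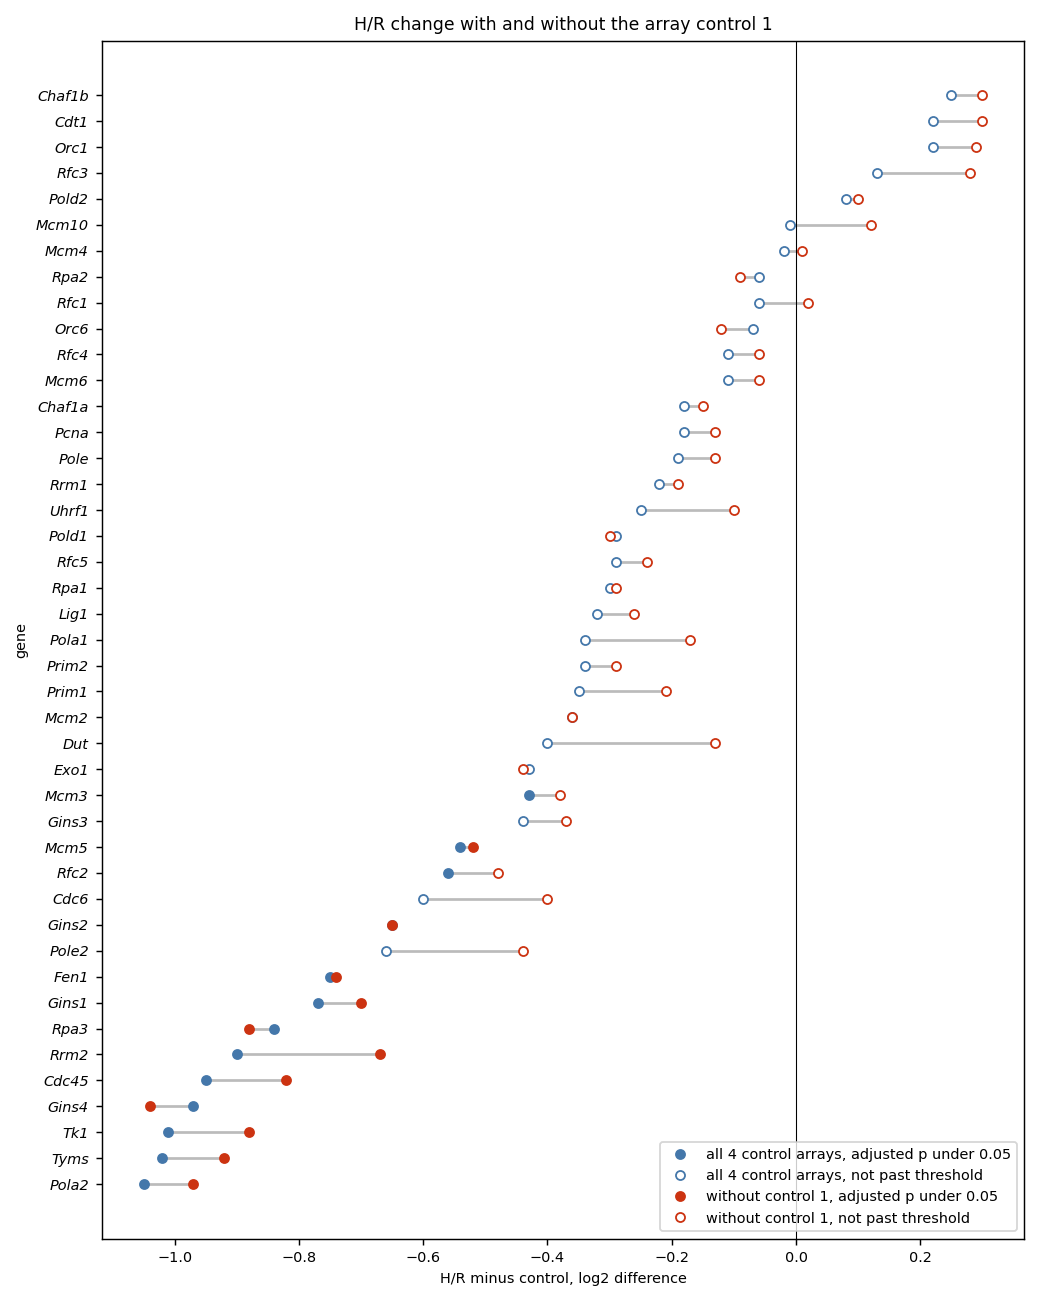
Log2 difference H/R minus control for each of the 43 members (rows), from all control arrays (blue) and without control 1 (red); filled points had a limma adjusted p under 0.05. Most points move toward 0 without control 1, Cdc6 from -0.60 to -0.40 and Dut from -0.40 to -0.13, while Gins4 moves from -0.97 to -1.04.

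The mean over the 43 members was 11.78 in control 1 and 11.45 to 11.60 in the other control arrays, 11.38 to 11.46 in control+B12, 11.13 to 11.25 in H/R and 11.14 to 11.27 in H/R+B12. Every control mean, with or without B12, was above every H/R mean. Control 1 exceeded the mean of the other control arrays most in Dut (by 1.09), Rrm2 (0.90), Pole2 (0.88) and Cdc6 (0.77).

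**Figure D5:**
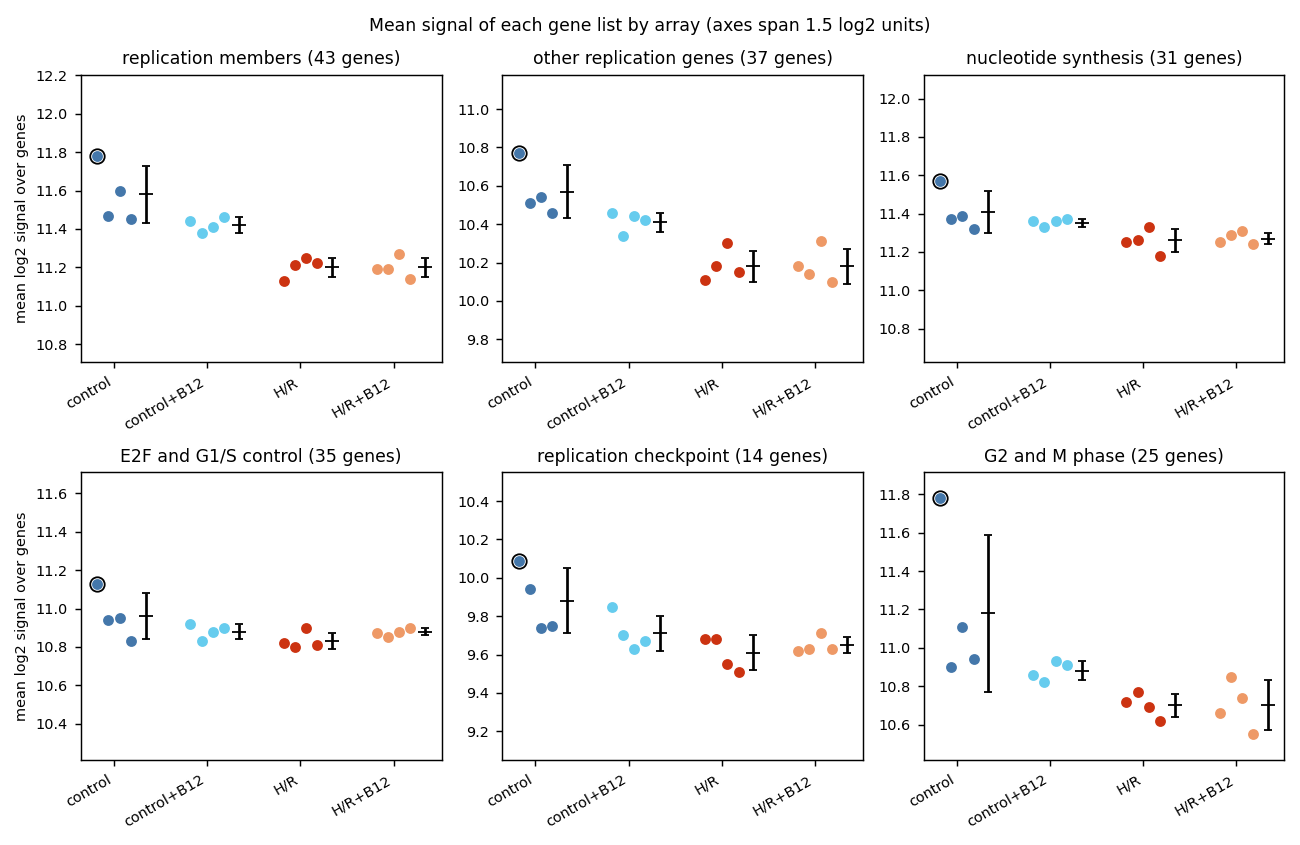
Mean log2 signal per array for the 43 members and for related gene lists, in the 4 groups; points are arrays, the ringed point is control 1 and bars are mean ± SD (n = 4). The members' control means run from 11.38 to 11.78 and the H/R means from 11.13 to 11.27, and in the genes of G2 and M phase control 1 stands apart at 11.78.

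Other genes of the pathway are given for the averaged comparison, where 14.7% of tested probe sets fell and 12.5% rose, or 14.2% and 12.2% without control 1. Of 37 other replication genes 13 fell (35.1%) and 3 rose (8.11%), with a median of -0.25, and the same counts were found without control 1. The falls included Dna2, a nuclease-helicase of flap processing, by 1.62 (SE 0.14, limma adjusted p = 2.23e-07) and Asf1b, a histone chaperone, by 1.14 (SE 0.10, limma adjusted p = 2.65e-07). Rnaseh2a and Rnaseh2c, subunits of the enzyme that removes RNA from DNA, fell by 1.00 and 0.99.

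Of 31 other nucleotide synthesis genes 8 fell (25.8%) and 5 rose (16.1%), and without control 1 the counts were 8 and 6, with Umps, UMP synthase, added. Dctd, the deaminase that feeds dUMP to thymidylate synthase, fell by 1.32 and Nme1, a nucleoside diphosphate kinase, by 0.94. Ctps, CTP synthase, rose by 1.64 (SE 0.09, 3.12-fold, limma adjusted p = 1.27e-09) and Uck2, a uridine-cytidine kinase of salvage, by 0.67.

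Among 35 genes of E2F and G1/S control 11 fell (31.4%) and 8 rose (22.9%), and without control 1 the counts were also 11 and 8, with E2f1 in and Fbxo5 out. Cdkn1a, the p21 inhibitor of cyclin-dependent kinases, rose by 1.56 (SE 0.08, limma adjusted p = 1.25e-09), with group means of 15.08 in control, 15.24 in control+B12, 16.71 in H/R and 16.74 in H/R+B12. Ccne1, cyclin E1, fell by 1.13, Cdkn2c, the p18 inhibitor, by 1.28 and Tfdp2, a partner of E2F factors, by 0.82, whereas Cdc25a, a phosphatase that activates the kinases, rose by 0.87. E2f1 differed by -0.37 (limma adjusted p = 0.052), or by -0.43 without control 1 (adjusted p = 0.0236).

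Of 14 replication checkpoint genes 3 fell and 3 rose (21.4% each), with or without control 1, with Brca1, of homologous repair, falling by 1.20 and Rad9a, of the checkpoint clamp, rising by 0.49. Of 25 genes of G2 and M phase 8 fell (32%) and 0 rose in the averaged comparison, and the same 8 fell without control 1, among them Kif20a, a kinesin of cytokinesis, by 0.90 and Cenpa, the centromeric histone, by 0.80. In H/R against control 7 of the 25 fell (28%, against 9.54% over all tested), and 3 without control 1 (12%, against 8.48%). With B12 in both arms the counts were 4 and 6 (16% and 24%, against 9.61% and 9.53%).

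Of 53 replication-dependent histone genes 5 fell (9.43%) and 6 rose (11.3%), with or without control 1, shares below those over all tested probe sets. Their median was 0.06. Most of these transcripts lack a poly(A) tail and several are near-identical copies, so single values such as the fall of H1f1 by 0.87 and the rise of H1f2 by 0.86 are uncertain.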

How the data were processed

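RNA of 16 samples was hybridised to Affymetrix arrays from 700 pg of input. The deposited values are log2 signals per probe set; per the submitters' processing notes the authors used RMA, Affymetrix Expression Console and the Transcriptome Analysis Console, of which the sources used here give no version. The 6640 control features were left out and limma 3.58.1 (R 4.3.3) fitted the 22206 other probe sets as deposited in 1 model of 4 groups with moderated variances. P-values are two-sided and adjusted by Benjamini and Hochberg over 22206 probe sets within each of 6 comparisons. The fit was tested on simulated data. Where a gene had several probe sets, the one with the highest mean stood for it. The members and the gene lists were chosen with earlier results of these data known. Each member is accounted for by role. Values in every array are given for the 10 members with the smallest p averaged over B12, the 3 with the smallest p in each B12 comparison and in the interaction, the first of each role, and a few chosen after their values were seen; Tk1 in H/R+B12 is given as a range. In each related list up to 4 genes with the smallest p were named, with Cdkn1a, Ccne1 and E2f1 in any case; Ccnd1 matched no named probe set. Nothing says that replicates were separate cultures of separate days, so the p-values reflect spread among these samples alone, which may be technical. All 8 titles of the treated samples read B12, while 6 of the descriptions give another number after the B; they were taken as B12. Alternatives were a replicate block, array weights, an intensity trend with robust variances, a filter on the dimmest 25%, quantile normalization, centring, 1 probe set per gene, fits of only the groups compared, and leaving out each array. Plots used Python 3.11.15 and matplotlib 3.10.9.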

Additional observations from a re-analysis of the deposited data

Results flagged for a closer look

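Within the 172 combinations of a member and a group of 4 arrays, 4 had an array whose gap to the nearest other relative to the group's whole range exceeded Dixon's 95% critical value, and chance alone gives about 1 in 20. Mcm3 was 12.90 in H/R+B12 1, against 12.96 to 12.97 in the other arrays of the group, a gap within a very narrow range. Mcm6 was 13.76 in control+B12 2, against 14.08 to 14.13. Rfc5 was 9.89 in H/R+B12 4, against 10.48 to 10.56. Fen1 was 11.21 in H/R+B12 3, against 10.90 to 10.95. Control 1 accounted for 0 of the 4.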

How the results depend on the processing

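Leaving out each array in turn gave 11 to 14 called members for H/R against control, 4 to 9 with B12, 16 to 20 averaged over B12 and 0 to 0 for both B12 comparisons and the interaction. The members' medians ran from -0.38 to -0.26, from -0.24 to -0.18 and from -0.29 to -0.24. The count with B12 was 5 when only the groups compared were fitted, against 9 (the cause was not tested), and 25 averaged members were called with an intensity trend and robust variances, against 20. Same-numbered arrays did not deviate together (r of -0.072 to 0.079 over 24 pairs), so no pairing by number was detected, which does not exclude it. With the number as a block the counts were 13, 6 and 20, and 0 for the others. Shares called over all tested probe sets are not given for the block, the intensity trend or the fits of only the groups compared. They are also not given for most fits that left out an array. For these counts, a general gain or loss of calls cannot be told apart from a change in the members. Of 4315 values of single genes under the alternatives, 4141 were counted as unchanged, 123 lost the call and 51 gained one. For genes without a call in the main fit, a change of direction was counted as unchanged. With 4 arrays per group the smallest member change called in H/R against control was -0.43 (Mcm3), so smaller changes may go undetected.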
